A study of Mus musculus with 20 samples.

Results

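Gene sets named for neurons, ion channels and G protein-coupled receptors (GPCRs) were followed through 7 comparisons of mouse melanoma lines and of myeloid cells from tumour-bearing mice. The 34 sets were chosen by name alone, from 3886 gene sets listed in at least 1 of the authors' 14 enrichment reports. A set was taken if it came from KEGG or Reactome, which are curated collections of pathways, and if its name held NEURO, SYNAP, GPCR, CHANNEL, POTASSIUM, LIGAND_RECEPTORS, AXON or OLFACTORY, but neither CHEMOKINE nor PLATELET. All 34 were listed in all 7 comparisons. By name they fell into 16 sets on synapses and neurotransmission, 8 on ion channels, 3 on GPCRs and their ligands, 3 on axons, 2 on olfaction and 2 with other neural names. The names do not all describe neurons. REACTOME_MEIOTIC_SYNAPSIS, taken for the letters SYNAP, describes the pairing of homologous chromosomes and holds core histone genes, and KEGG_NEUROTROPHIN_SIGNALING_PATHWAY and REACTOME_NEURODEGENERATIVE_DISEASES describe growth factor signalling and deregulation of the kinase CDK5.

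Neurons signal by releasing transmitter at synapses, where it opens ligand-gated channels such as the NMDA and AMPA receptors or acts on GPCRs, and potassium channels bring the membrane back to rest. Neurexins and neuroligins are adhesion proteins that join the sides of a synapse. Many of these gene families also act outside the nervous system: potassium and TRP channels and GPCRs shape calcium entry and migration in leukocytes, and melanocytes derive from the neural crest, which also gives rise to peripheral neurons and glia.

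The series holds 20 RNA-seq libraries of C57BL/6 mouse material. Of these, 14 came from cells labelled myeloid, isolated from adult bone marrow or spleen with a kit that depletes CD3e-positive cells, and 6 from melanoma lines grown in dishes for 4 days. B16F10 was derived from a spontaneous melanoma by repeated selection for spread to the lung, and YUMM3.3 from a melanoma that arose in mice carrying engineered driver mutations. Bone marrow had 3 libraries from healthy animals, 3 from B16F10-bearing and 2 from YUMM3.3-bearing animals, spleen had 2 from each of these conditions, and each line had 3. The labels name no agent given to the animals and do not say where or for how long the tumours grew. CD3e depletion removes T cells and selects nothing, so other cells of marrow and spleen can be present. The label myeloid could not be checked against marker genes, because the files give scores of sets and no gene. For the same reason, fewer cells of a type and less RNA per cell cannot be told apart in any score below. The labels do not say whether libraries came from separate animals or cultures, and sequencing depth is unknown here.

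Each score is a normalised enrichment score (NES), which rises in size as the genes of a set gather at an end of the list of all genes ranked between 2 groups. It is scaled so that a size near 1 is the average of the authors' permuted data for that set. Its sign is given here so that a set with a positive score was higher in the group named first. The sign rests on the names of the reports, which come in pairs, with each myeloid report read as the sets higher in the group it names first. Its deposited sign was turned where needed, since the deposited scores are positive for healthy against tumour-bearing and for B16F10-bearing against YUMM3.3-bearing animals. A set was called at a deposited false discovery rate q (FDR q) below 0.05. With 3 libraries against 3, relabelling could give no one-sided p under 0.05, and with 2 against 2 none under 0.167, whereas the smallest deposited nominal p above 0 was between 0.00103 and 0.00171 in each comparison. The deposited q therefore does not measure the spread between libraries, and no replicate error can be given. The reported ranks and list shares place 14549 genes in the ranked list of the myeloid comparisons (up to 14550 in B16F10-bearing against healthy spleen) and 14174 to 14176 in that of the lines. The members held 15 to 470 genes, with a median of 46.5 in the lines and 47 in the myeloid lists. They overlap: Reactome's neuronal system contains most of its synapse and potassium channel sets, so the 34 scores are not separate measurements, and no test was made over them.

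Between the cultured lines, none of the 34 sets was called, whereas in bone marrow 8 of the 34 were called lower in B16F10-bearing than in YUMM3.3-bearing animals. In the lines, 0 of 34 were higher in YUMM3.3, against 11.8% of all 3871 listed sets, and 0 of 34 were lower, against 1.47%. Of the other KEGG and Reactome sets, 5.56% were called higher and 2.44% lower. By the deposited nominal p below 0.05, 5 were higher (26.5% of all sets) and 1 lower (5.06%). These member shares, 14.7% and 2.94%, were smaller than those of the listed sets as a whole. Among the other KEGG and Reactome sets 13.9% were higher, near the members' share, and 6.24% lower. At a looser FDR q below 0.25, 8 were higher, or 23.5% against 35.4% of all sets and 20.5% of the other KEGG and Reactome sets. On the lower side there was 1, against 3.72% and 5.17%. By sign alone 27 of the 34 leaned toward YUMM3.3, or 79.4%, close to the 73.3% of all listed sets and above the 62.3% of the other KEGG and Reactome sets. Their median NES was 0.97, against 1.08 over all listed sets and 0.81 over the other KEGG and Reactome sets.

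In bone marrow the lower side held more members than the higher side with B16F10. Against healthy marrow, 2 of 34 were called lower in B16F10-bearing animals (5.0% of all 3883 sets) and 2 higher (20.1%). The counts below 0.25 were 10 lower (17.4%) and 3 higher (37.1%). The members' median NES was -1.07, against 0.96 over all sets, and 24 of 34 were negative, which is 70.6% against 43.8% of all sets and 37.9% of the other KEGG and Reactome sets. With YUMM3.3, 2 were called higher than in healthy marrow (9.68%) and 1 lower (6.52%), 27 of 34 were positive, and the median was 1.06 against 0.74 over all sets. With q below 0.25, 8 were higher (19.9%) and 1 lower (20.1%). Directly between the tumours, 8 were called lower with B16F10, or 23.5% against 8.40% of all sets and 16.8% of the other KEGG and Reactome sets, and 1 was called higher (8.09%). The looser threshold gave 12 lower (17.9%) and 1 higher (21.3%). The median here was -1.12 against 0.72 over all sets, and 29 of 34 were negative, or 85.3% against 48.3% of all sets and 50.6% of the other KEGG and Reactome sets. The 3 marrow comparisons share libraries pairwise and are given side by side only.

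In spleen more members than listed sets as a whole had negative scores with either tumour against healthy animals. Against healthy spleen, 3 of 34 were called lower in YUMM3.3-bearing animals (5.31% of all sets) and 1 higher (15.6%). As many as 30 of 34 were negative, or 88.2% against 51.7% of all sets and 47.9% of the other KEGG and Reactome sets, and the median was -1.07 against -0.69. A q below 0.25 was listed for 14 lower (25%) and 1 higher (23.3%) sets. With B16F10, 0 of 34 were called higher than in healthy spleen (16.6%) and 0 lower (1.6%), with 2 higher (27.5%) and 5 lower (6.16%) at a nominal p below 0.05. Of the 34, 19 were negative, or 55.9% against 25.3% of all sets and 30.9% of the other KEGG and Reactome sets, and the median was -0.78 against 1.09 over all sets. At FDR q below 0.25, 3 were higher (34.7%) and 4 lower (5.79%). Directly between the tumours in spleen, 0 were higher with B16F10 (9.63%) and 0 lower (1.47%), with 3 higher (22.9%) and 0 lower (6.13%) at a nominal p below 0.05. At FDR q below 0.25, 4 were higher (28.4%) and 0 lower (5.10%). There 25 of 34 were positive, or 73.5%, close to the 72.8% of all sets.

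**Figure D1:**
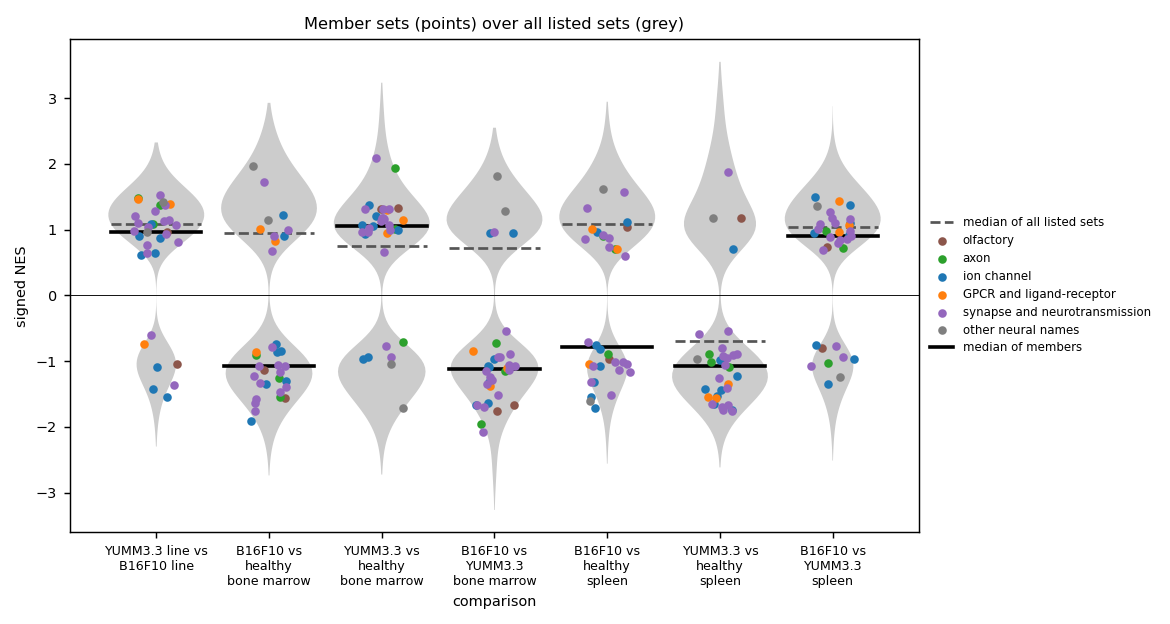
Signed NES (vertical axis, no unit) of the 34 member sets in each of the 7 comparisons (horizontal axis), as points coloured by role over the distribution of all listed sets in grey. Black lines are medians of the members and dashed lines medians of all sets. The members lie mostly below 0 in B16F10-bearing against YUMM3.3-bearing marrow (29 of 34) and in YUMM3.3-bearing against healthy spleen (30 of 34).

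The 20 calls made over all 7 comparisons fell on 13 of the 34 sets, 6 of them as higher and 14 as lower. All 6 higher calls belonged to 4 sets singled out after their values were seen: meiotic synapsis, neurotrophin signalling, neurodegenerative diseases and REACTOME_AXON_GUIDANCE, a broad set of 470 genes. The same 4 also carried 3 of the 14 lower calls, and the other 30 members had 11 lower and 0 higher. This split follows in part from how the 4 were picked. The shares of all sets called are given per comparison above. Of the 34, 21 sets were called in no comparison.

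**Figure D2:**
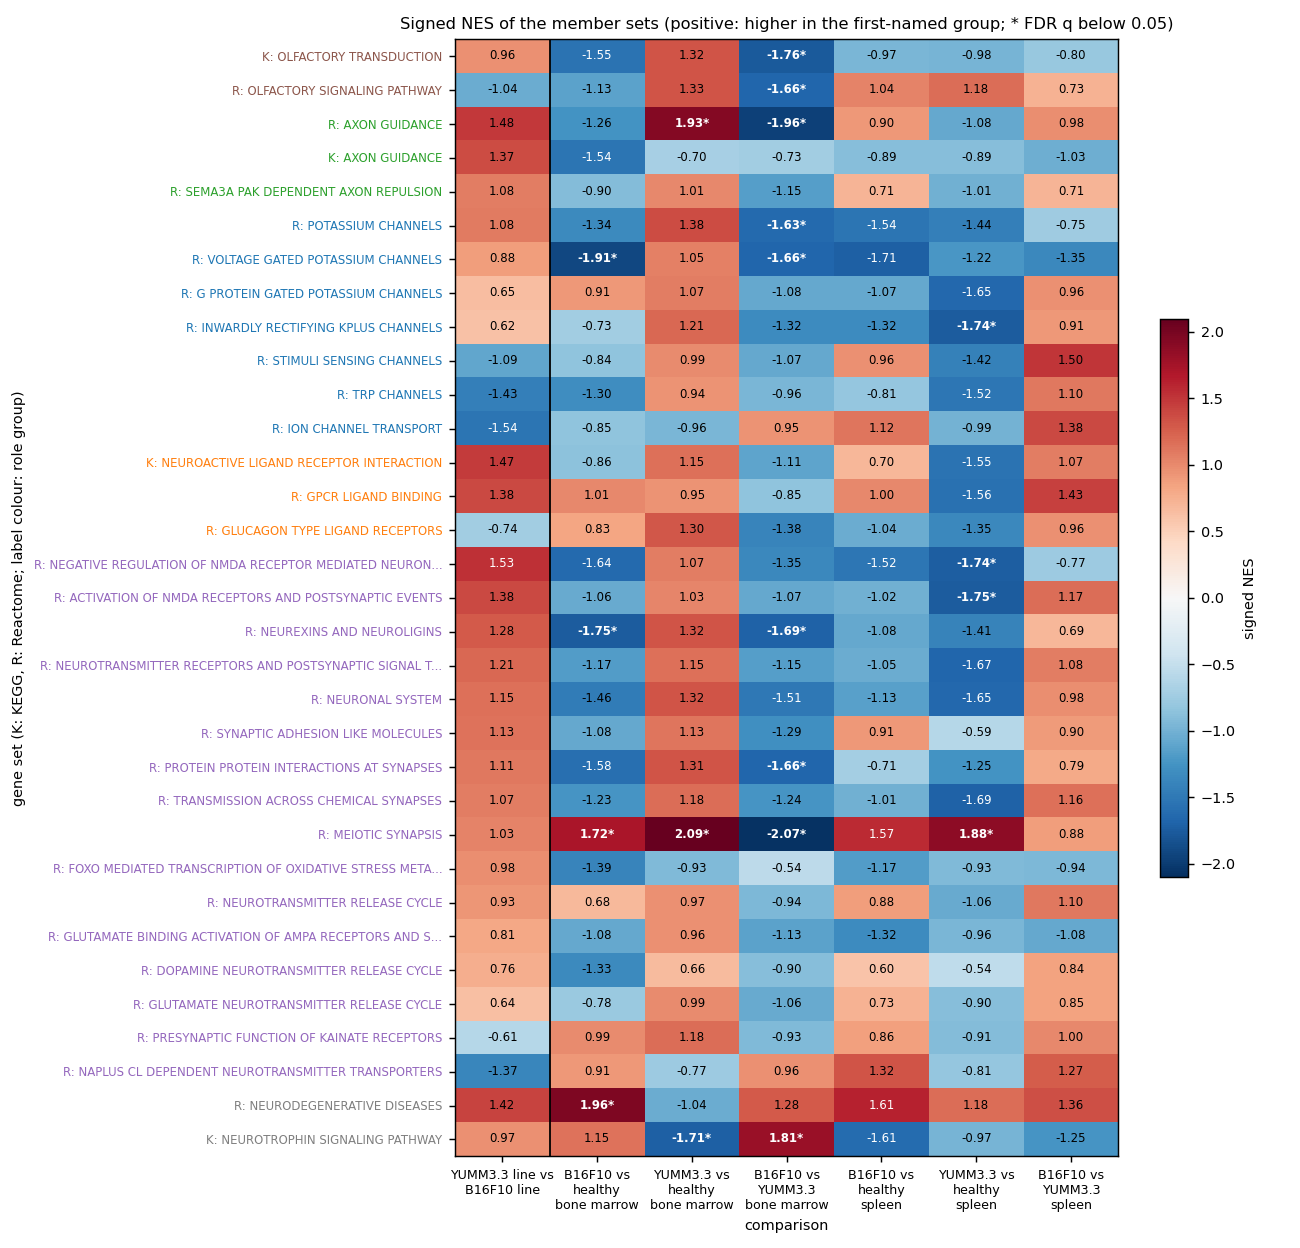
Signed NES of 33 of the 34 member sets (rows, label colour by role; the other set is not reported by name) in each of the 7 comparisons (columns). Red is higher and blue lower in the first-named group, and bold values with an asterisk have a deposited FDR q below 0.05. The first column, the lines, has no asterisk, and the 8 lower calls of B16F10-bearing against YUMM3.3-bearing marrow stand in the fourth.

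Among the ion channel sets, those of potassium channels gave all the calls. REACTOME_VOLTAGE_GATED_POTASSIUM_CHANNELS, 39 genes for channels that open on depolarisation, scored -1.91 in B16F10-bearing against healthy marrow in the authors' deposited table (FDR q = 0.00970). Its scores were 1.05 in YUMM3.3-bearing against healthy marrow and -1.66 (FDR q = 0.0418) between the tumours in marrow, again in the authors' deposited table. The set was thus lower with B16F10 against either group of marrow. In spleen the authors' deposited table gave -1.71 for B16F10-bearing against healthy animals (FDR q = 0.0815), -1.22 for YUMM3.3-bearing against healthy and -1.35 between the tumours, none of them called. In the lines it was 0.88 in the authors' deposited table (FDR q = 0.788). REACTOME_POTASSIUM_CHANNELS, the parent set of 89 genes, was called in marrow between the tumours, where the authors' deposited table listed -1.63 (FDR q = 0.0495). Its q lies just under the threshold, and its other scores in the authors' deposited table ran from -1.54 in B16F10-bearing against healthy spleen to 1.38 in YUMM3.3-bearing against healthy marrow, with 1.08 in the lines.

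REACTOME_INWARDLY_RECTIFYING_KPLUS_CHANNELS, 28 genes for channels that hold the resting potential, was called in spleen, at -1.74 for YUMM3.3-bearing against healthy animals in the authors' deposited table (FDR q = 0.0395). Its subset opened by G protein subunits, REACTOME_G_PROTEIN_GATED_POTASSIUM_CHANNELS, had -1.65 there in the authors' deposited table and was not called (FDR q = 0.0615). In the lines these sets were at 0.62 and 0.65 in the authors' deposited table, sizes below the average of permuted data. The 4 sets of other channels showed no call. REACTOME_TRP_CHANNELS, cation channels that sense temperature, chemicals and stretch, had -1.52 in YUMM3.3-bearing against healthy spleen (FDR q = 0.102) and -1.43 in the lines (FDR q = 0.265) in the authors' deposited table. REACTOME_ION_CHANNEL_TRANSPORT, which also holds ion pumps, had the lowest score of the 34 in the lines, -1.54 in the authors' deposited table (FDR q = 0.168). Higher scores for this set were found in spleen with B16F10 than with YUMM3.3, at 1.38, as for REACTOME_STIMULI_SENSING_CHANNELS, at 1.5, in the authors' deposited table (FDR q = 0.206 and 0.124). Over the 8 channel sets, 6 were negative in B16F10-bearing against YUMM3.3-bearing marrow and 7 in YUMM3.3-bearing against healthy spleen, with medians of -1.08 and -1.43, where 48.3% and 51.7% of all sets were negative. In the lines 5 of the 8 were positive, or 62.5%, below the 73.3% of all sets, and the median was 0.63.

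The synapse and neurotransmission sets were mostly negative in B16F10-bearing against YUMM3.3-bearing marrow and in YUMM3.3-bearing against healthy spleen. Of the 15 left when meiotic synapsis is set aside, 14 were negative in the first of these, or 93.3% against 48.3% of all sets. The 2 called lower there are 13.3%, against 8.40% of all sets and 16.8% of the other KEGG and Reactome sets. In the same contrast in spleen 12 were positive, or 80%, near the 72.8% of all sets, with 0 called and 0 at a nominal p below 0.05. In YUMM3.3-bearing against healthy spleen all 15 were negative, from -1.75 to -0.54, against 51.7% of all sets. There 2 were called lower, or 13.3% against 5.31% of all sets and 3.60% of the other KEGG and Reactome sets. In YUMM3.3-bearing against healthy marrow 13 were positive, or 86.7% against 53.1% of all sets, and 0 were called, with 1 higher at a nominal p below 0.05 (16.6% of all sets). In the lines 13 were positive, from 0.64 upward, against 73.3% of all sets, and 0 were called, again with 1 higher at a nominal p below 0.05 (26.5% of all sets). The difference between marrow and spleen was not tested, since there is 1 score per set and comparison. These 15 include REACTOME_FOXO_MEDIATED_TRANSCRIPTION_OF_OXIDATIVE_STRESS_METABOLIC_AND_NEURONAL_GENES, targets of FOXO transcription factors that are mostly not synaptic, at 0.98 in the lines and -1.39 in B16F10-bearing against healthy marrow in the authors' deposited table (FDR q = 0.631 and 0.190).

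Sets for synaptic adhesion were called in marrow. REACTOME_NEUREXINS_AND_NEUROLIGINS, 49 genes for adhesion proteins across the synapse and their scaffolds, scored -1.75 in B16F10-bearing against healthy marrow (FDR q = 0.0353) and -1.69 against YUMM3.3-bearing marrow (FDR q = 0.0338) in the authors' deposited table. YUMM3.3-bearing against healthy marrow gave 1.32 for this set in the authors' deposited table (FDR q = 0.234). Marrow with B16F10 was thus the low group in both comparisons it entered. In spleen the authors' deposited table listed -1.08, -1.41 and 0.69 for B16F10-bearing against healthy, YUMM3.3-bearing against healthy and B16F10-bearing against YUMM3.3-bearing animals, and in the lines 1.28, none called. Its parent set, REACTOME_PROTEIN_PROTEIN_INTERACTIONS_AT_SYNAPSES with 79 genes, was called between the tumours in marrow, at -1.66 in the authors' deposited table (FDR q = 0.0416). REACTOME_SYNAPTIC_ADHESION_LIKE_MOLECULES, another branch of the same parent, stood at -1.29 there in the authors' deposited table (FDR q = 0.261).

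Sets for the NMDA receptor, a glutamate-gated channel that lets in calcium, were called in spleen instead. REACTOME_ACTIVATION_OF_NMDA_RECEPTORS_AND_POSTSYNAPTIC_EVENTS, 83 genes, had -1.75 in YUMM3.3-bearing against healthy spleen in the authors' deposited table (FDR q = 0.0378). REACTOME_NEGATIVE_REGULATION_OF_NMDA_RECEPTOR_MEDIATED_NEURONAL_TRANSMISSION, 20 genes, had -1.74 in the authors' deposited table (FDR q = 0.0409). The latter also had the highest score of the 34 in the lines, 1.53 in the authors' deposited table, which was not called (FDR q = 0.0707), and the lowest in spleen with B16F10 among the synapse sets, -1.52 against healthy animals (FDR q = 0.176). In B16F10-bearing against healthy marrow it was at -1.64 in the authors' deposited table (FDR q = 0.0685). Thus it was positive in YUMM3.3 over B16F10 cells and negative in every tumour-bearing against healthy comparison other than that of YUMM3.3 in marrow, where the authors' deposited table gave 1.07. The broad parents followed in YUMM3.3-bearing against healthy spleen without being called, with -1.65 for REACTOME_NEURONAL_SYSTEM, -1.69 for REACTOME_TRANSMISSION_ACROSS_CHEMICAL_SYNAPSES and -1.67 for REACTOME_NEUROTRANSMITTER_RECEPTORS_AND_POSTSYNAPTIC_SIGNAL_TRANSMISSION in the authors' deposited table (FDR q = 0.0618, 0.0525 and 0.0572).

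Sets for transmitter release and uptake had no call. The release cycles for glutamate (REACTOME_GLUTAMATE_NEUROTRANSMITTER_RELEASE_CYCLE), for dopamine (REACTOME_DOPAMINE_NEUROTRANSMITTER_RELEASE_CYCLE) and in general (REACTOME_NEUROTRANSMITTER_RELEASE_CYCLE) were not called in any of the 7 comparisons, and neither were REACTOME_PRESYNAPTIC_FUNCTION_OF_KAINATE_RECEPTORS or REACTOME_GLUTAMATE_BINDING_ACTIVATION_OF_AMPA_RECEPTORS_AND_SYNAPTIC_PLASTICITY. The lowest score among these 5 was -1.33, for dopamine in B16F10-bearing against healthy marrow in the authors' deposited table (FDR q = 0.233). REACTOME_NAPLUS_CL_DEPENDENT_NEUROTRANSMITTER_TRANSPORTERS, the carriers that clear transmitter from the synapse, had the lowest score of the group in the lines, -1.37 in the authors' deposited table (FDR q = 0.331). It was also the sole synapse set above 0 in B16F10-bearing against YUMM3.3-bearing marrow, at 0.96 in the authors' deposited table.

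GPCR and ligand sets were not called in any comparison. By a nominal p below 0.05, 2 of the 3 were higher in the YUMM3.3 line (26.5% of all sets). Likewise 2 were lower in YUMM3.3-bearing against healthy spleen (17.9%) and 1 higher between the tumours in spleen (22.9%). REACTOME_GPCR_LIGAND_BINDING, with 378 genes in the myeloid lists and 353 in the lines, covers GPCRs and the hormones, peptides and amines they bind. In YUMM3.3-bearing against healthy spleen it had -1.56 (FDR q = 0.0900), and between the tumours in spleen 1.43 (FDR q = 0.168), in the authors' deposited table. KEGG_NEUROACTIVE_LIGAND_RECEPTOR_INTERACTION, a list of receptors for transmitters and hormones, had -1.55 in the first of these comparisons in the authors' deposited table (FDR q = 0.0938). Both sets were positive in the lines, at 1.38 and 1.47 in the authors' deposited table (FDR q = 0.151 and 0.100), and among the members only 2 other sets, the inhibitory NMDA receptor set and Reactome axon guidance, exceeded 1.47 there. Their maxima in the lines came after 14% and 10% of the ranked list, when only 10% and 8% of their genes had been passed. Most genes of both sets thus lay outside the part of the list that gave the score. REACTOME_GLUCAGON_TYPE_LIGAND_RECEPTORS, receptors for peptide hormones of the secretin class, went from -1.38 between the tumours in marrow to 1.30 in YUMM3.3-bearing against healthy marrow, and was at -0.74 in the lines, in the authors' deposited table. All 3 sets were negative in YUMM3.3-bearing against healthy spleen and in B16F10-bearing against YUMM3.3-bearing marrow, and all 3 were positive between the tumours in spleen.

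Axon guidance, the steering of growing nerve fibres by secreted and membrane cues, was covered by a Reactome and a KEGG set that differed in marrow. REACTOME_AXON_GUIDANCE rose in YUMM3.3-bearing against healthy marrow, at 1.93 (FDR q = 0.00314), and was lower with B16F10 than with YUMM3.3, at -1.96 (FDR q = 0.00336), in the authors' deposited table. KEGG_AXON_GUIDANCE, 117 genes of guidance ligands, receptors and cytoskeletal effectors, had -0.70 and -0.73 in the same comparisons in the authors' deposited table (FDR q = 0.966 and 0.960). The sets thus had opposite signs in the first comparison, and the KEGG set was not called in either. Reactome's version includes signalling by ROBO guidance receptors, and with it ribosomal protein and proteasome genes that it lists under control of SLIT and ROBO expression. That subset, REACTOME_REGULATION_OF_EXPRESSION_OF_SLITS_AND_ROBOS, had 3.11 and -2.99 in these comparisons in the authors' deposited table, larger in size than any member. Its part in the score of the larger set was not tested. In the lines the axon sets had 1.48 for Reactome, 1.37 for KEGG and 1.08 for REACTOME_SEMA3A_PAK_DEPENDENT_AXON_REPULSION, a branch of semaphorin signalling, in the authors' deposited table, and none was called (FDR q = 0.0925, 0.158 and 0.466). In B16F10-bearing against healthy marrow all 3 were negative, from -1.54 to -0.90.

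Olfactory sets, made up mostly of odorant receptor genes, were called lower with B16F10 than with YUMM3.3 in marrow, on a leading edge that spread over nearly the same share of the list as of the set. KEGG_OLFACTORY_TRANSDUCTION had -1.76 (FDR q = 0.0208) and REACTOME_OLFACTORY_SIGNALING_PATHWAY -1.66 (FDR q = 0.0420) in the authors' deposited table. The maximum of each was reached at rank 6891, that is after 47% of the ranked list, and by then 50% and 48% of the sets' genes had been passed. For comparison, neurexins and neuroligins in the same comparison had passed 55% of their genes within 24% of the list, and meiotic synapsis 29% within 2%. A late maximum was not particular to olfaction. Voltage-gated potassium channels had passed 69% of their genes within 42% of the list, and their parent potassium channel set 56% within 39%. In spleen the olfactory sets ran from -0.98 to 1.18 in the authors' deposited table and were not called. The sets differed in size between the lists: 225 and 228 genes in the myeloid lists, or 1.55% and 1.57% of the ranked genes, against 112 and 106 in the lines, or 0.790% and 0.748%. In the lines they had opposite signs, 0.96 and -1.04 in the authors' deposited table, with 4% and 1% of their genes in the leading edge.

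**Figure D3:**
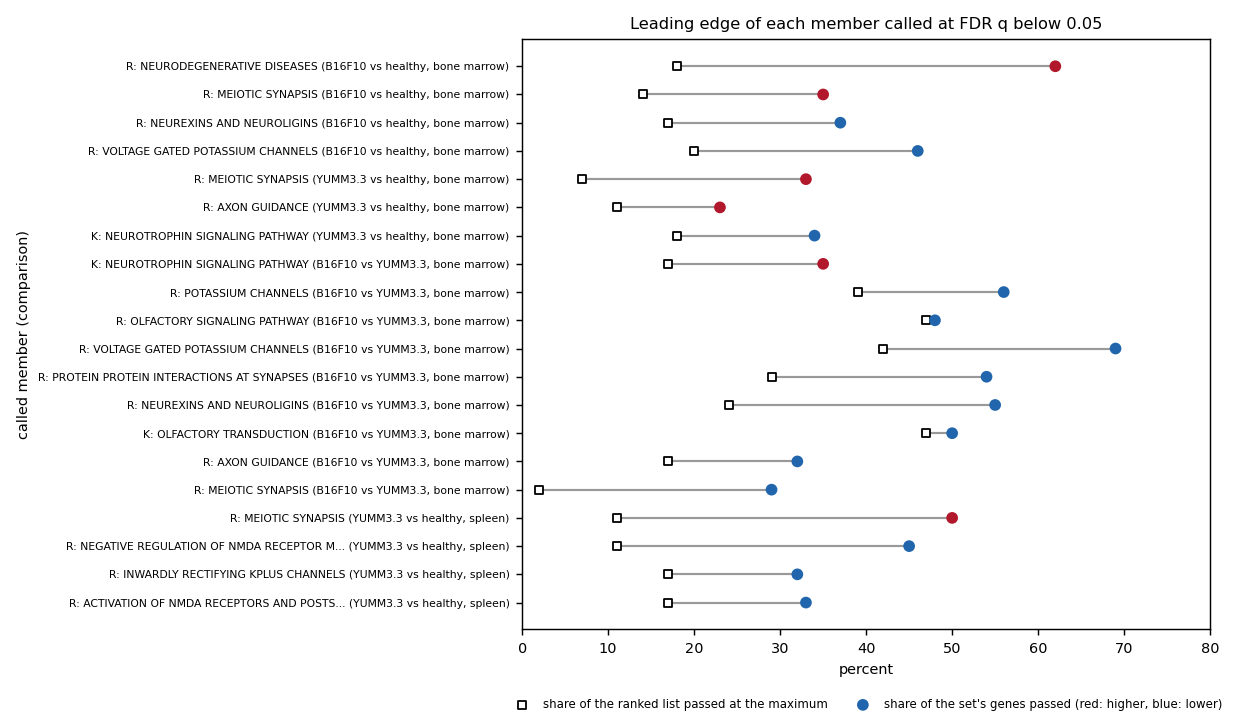
For each of the 20 calls (rows), the share of the ranked list passed when the running score was largest (open squares) and the share of the set's genes passed by then (filled circles, red for sets higher and blue for sets lower in the first-named group), in percent. The olfactory sets have the smallest gaps, 50% against 47% and 48% against 47%, and neurodegenerative diseases the widest, 62% against 18%.

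The 3 sets whose names match the letters but describe other processes carried 5 of the 6 higher calls. REACTOME_MEIOTIC_SYNAPSIS, 52 genes, was called in 4 comparisons: 1.72 in B16F10-bearing against healthy marrow (FDR q = 0.0200), 2.09 in YUMM3.3-bearing against healthy marrow (FDR q = 0.000409), -2.07 between the tumours in marrow (FDR q = 0.000872) and 1.88 in YUMM3.3-bearing against healthy spleen (FDR q = 0.00301), in the authors' deposited table. It was therefore higher than in healthy cells in each of these tumour-bearing groups, and in B16F10-bearing spleen it had 1.57 in the authors' deposited table without being called (FDR q = 0.0690). In the lines it stood at 1.03 in the authors' deposited table (FDR q = 0.538). REACTOME_NEURODEGENERATIVE_DISEASES, 21 genes in the myeloid lists, was called higher in B16F10-bearing against healthy marrow, at 1.96 (FDR q = 0.00263), and fell just short in spleen, at 1.61 (FDR q = 0.0531), in the authors' deposited table. KEGG_NEUROTROPHIN_SIGNALING_PATHWAY, kinase cascades below nerve growth factor receptors that many cell types use, was lower in YUMM3.3-bearing than in healthy marrow, at -1.71 (FDR q = 0.0388), and higher with B16F10 than with YUMM3.3, at 1.81 (FDR q = 0.0189), in the authors' deposited table. Its direction in marrow was thus opposite to that of the channel and synapse sets called in the same comparison, and in spleen it was -1.25 between the tumours in the authors' deposited table (FDR q = 0.404).

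Set side by side as YUMM3.3 against B16F10, the lines and the myeloid cells had the same sign for 26 of the members in marrow and 16 in spleen. The marrow count is 76.5% of the 34, against 46.1% of the 3868 sets listed in both. Of these 26, 24 were positive in both, for example neurexins and neuroligins, and 2 negative in both, ion channel transport and the sodium and chloride dependent transporters. In spleen 16 of 34 had the same sign, or 47.1%, against 40.3% of all sets, and 18 sets were positive in the lines and negative in spleen. Across the 34 members Spearman's rank correlation between lines and myeloid NES was 0.22 in marrow and 0.08 in spleen (Pearson's r 0.22 and 0.31). Members share genes, and NES has a gap around 0, so these values describe the sets and are not tests. On their own, 27 of the 34 leaned to YUMM3.3 in the lines, 29 in marrow and 9 in spleen. For lines and marrow these leanings alone fix most of the matching signs, so that count is not a separate result.

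**Figure D4:**
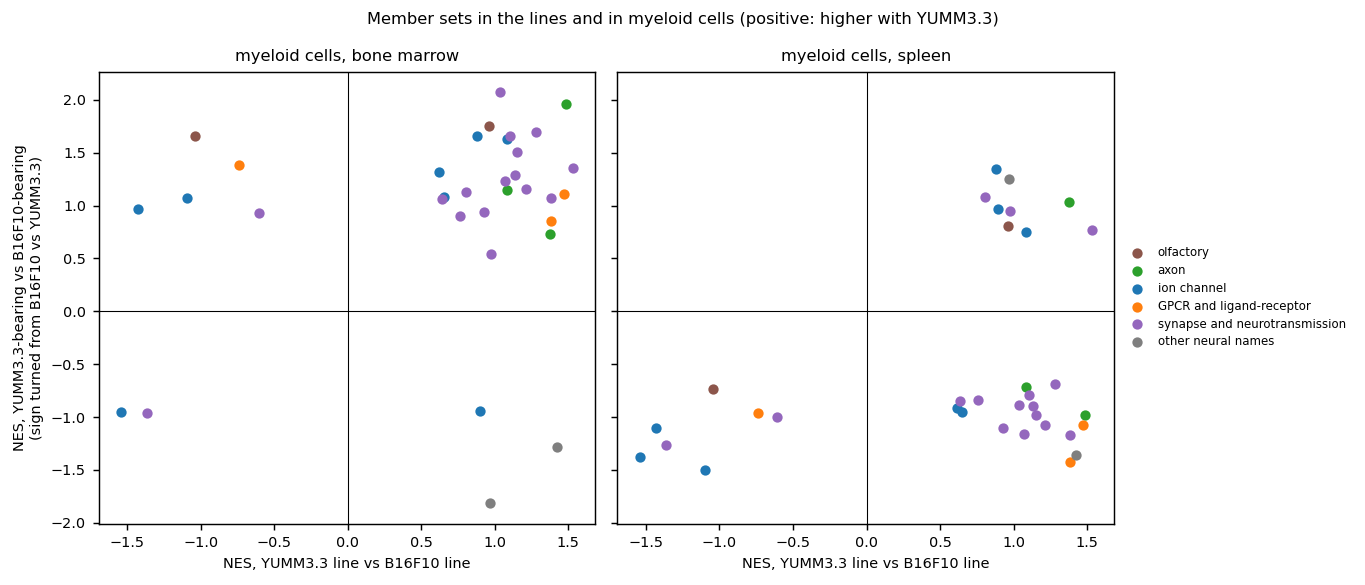
NES of the 34 member sets in the YUMM3.3 against the B16F10 line (horizontal axis) and in myeloid cells of YUMM3.3-bearing against B16F10-bearing animals (vertical axis, sign turned), for bone marrow on the left and spleen on the right, coloured by role. In marrow 24 sets lie in the upper right quadrant, and in spleen 18 lie in the lower right.

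The tissues also differed in the tumour-bearing against healthy contrasts, which share no library between marrow and spleen. With YUMM3.3, 25 of the 34 members were positive in marrow and negative in spleen, or 73.5%, against 30.9% of all sets. The potassium channel, NMDA receptor and neuronal system sets were among them. Most of this count follows from the signs within each tissue, 27 of 34 positive in marrow and 30 of 34 negative in spleen. With B16F10, 15 were negative in both tissues, or 44.1%, against 19.6% of all sets, and 9 were negative in marrow and positive in spleen. Voltage-gated potassium channels and neurexins and neuroligins were negative in both. Within each tissue, 24 of 34 were negative in marrow and 19 in spleen with B16F10. Whether the marrow and spleen libraries came from the same animals is not stated, and the difference between tissues was not tested.

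Among 39 related KEGG and Reactome sets outside the name rule, covering G protein arms, guidance receptors, neural adhesion and transmitter receptors, 3 were called higher in the YUMM3.3 line and 0 lower. These are 7.69% of the 39, below the 11.8% of all sets called higher there. REACTOME_NCAM1_INTERACTIONS, a neural cell adhesion molecule and its ligands, which in Reactome include collagens, had 1.91 there (FDR q = 0.000940), and REACTOME_NCAM_SIGNALING_FOR_NEURITE_OUT_GROWTH 1.78 (FDR q = 0.00804), in the authors' deposited table. Both were lower in B16F10-bearing than in healthy marrow, at -1.86 and -1.88 in the authors' deposited table (FDR q = 0.0160 and 0.0129). REACTOME_LONG_TERM_POTENTIATION, NMDA receptor-dependent strengthening of synapses, had 1.72 in the lines (FDR q = 0.0158), -1.70 between the tumours in marrow (FDR q = 0.0316) and -2.00 in YUMM3.3-bearing against healthy spleen (FDR q = 0.00667), in the authors' deposited table. So this set, unlike the NMDA receptor members beside it, was called in the lines as well as in myeloid cells. The KEGG set of the same name, KEGG_LONG_TERM_POTENTIATION, was called in none of these comparisons. Its scores there were 1.16, -0.93 and -0.58 in the authors' deposited table (FDR q = 0.358, 0.747 and 0.992). REACTOME_G_ALPHA_12_13_SIGNALLING_EVENTS, the G protein arm that acts on the cytoskeleton, was lower in YUMM3.3-bearing than in healthy marrow, at -1.97 in the authors' deposited table (FDR q = 0.00698). In the myeloid comparisons the related sets had 1 higher (20.1% of all sets) and 2 lower (5.0%) calls in B16F10-bearing against healthy marrow, 2 (9.68%) and 1 (6.52%) in YUMM3.3-bearing against healthy marrow, and 0 (8.09%) and 4 (8.40%) between the tumours in marrow. The 4 are 10.3% and the 2 lower calls 5.13% of the 39, both near the share of all sets. In spleen they had 0 (15.6%) and 2 (5.31%) in YUMM3.3-bearing against healthy animals. For B16F10-bearing against healthy animals 0 were called higher (16.6%) and 0 lower (1.6%). By a nominal p below 0.05, 3 were higher there (27.5%) and 5 lower (6.16%). Between the tumours 0 were called higher (9.63%) and 0 lower (1.47%), with 3 (22.9%) and 0 (6.13%) by the nominal p.

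Sets for platelets and for B and T cell receptors, 16 in all, were also called in the myeloid comparisons. In B16F10-bearing against healthy marrow 4 of them were called lower, or 25% against 5.0% of all sets, and 3 higher, or 18.8% against 20.1%. The lower calls were led by REACTOME_ANTIGEN_ACTIVATES_B_CELL_RECEPTOR_BCR_LEADING_TO_GENERATION_OF_SECOND_MESSENGERS at -2.23 in the authors' deposited table. B cell receptor sets were not of 1 sign there. REACTOME_DOWNSTREAM_SIGNALING_EVENTS_OF_B_CELL_RECEPTOR_BCR was called higher, at 1.78 in the authors' deposited table (FDR q = 0.0132). The other higher calls were REACTOME_PLATELET_SENSITIZATION_BY_LDL at 1.73 and REACTOME_DOWNSTREAM_TCR_SIGNALING at 1.61 in the authors' deposited table (FDR q = 0.0188 and 0.0400). Between the tumours in marrow 4 were lower (8.40% of all sets) and 1 higher (8.09%). Largest in size among the lower were REACTOME_RUNX1_REGULATES_GENES_INVOLVED_IN_MEGAKARYOCYTE_DIFFERENTIATION_AND_PLATELET_FUNCTION at -2.64 and REACTOME_DOWNSTREAM_TCR_SIGNALING at -2.06 in the authors' deposited table. Next came REACTOME_PHOSPHORYLATION_OF_CD3_AND_TCR_ZETA_CHAINS, a T cell set by name, at -1.85 in the authors' deposited table. The T cell sets were not of 1 sign there, since KEGG_T_CELL_RECEPTOR_SIGNALING_PATHWAY had 1.30 and was not called (FDR q = 0.238). Nor were the platelet sets, since the 1 higher call was REACTOME_PLATELET_SENSITIZATION_BY_LDL, at 1.87 in the authors' deposited table (FDR q = 0.0124). In YUMM3.3-bearing against healthy marrow 2 were lower (6.52%) and 5 higher (9.68%). In YUMM3.3-bearing against healthy spleen 3 were lower (5.31%) and 2 higher (15.6%). The 3 lower were platelet sets, with REACTOME_PLATELET_ACTIVATION_SIGNALING_AND_AGGREGATION at -2.16 in the authors' deposited table. Called platelet sets went both ways there. REACTOME_FACTORS_INVOLVED_IN_MEGAKARYOCYTE_DEVELOPMENT_AND_PLATELET_PRODUCTION was called higher, at 1.71 in the authors' deposited table (FDR q = 0.0162). In B16F10-bearing spleen 3 receptor sets were lower than in healthy spleen (1.6%) and 0 of the 16 were higher (16.6%). By a nominal p below 0.05, 2 were higher (27.5%). Between the tumours in spleen 2 were lower (1.47%) and 1 higher (9.63%). In the lines 0 of the 16 were called higher (11.8%) and 0 lower (1.47%), with 1 higher at a nominal p below 0.05 (26.5%). The part of lymphocyte and platelet genes in the scores of the channel, synapse and GPCR sets was not tested.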

How the data were processed

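RNA was sequenced from 20 libraries, grouped by the labels for tissue, disease state and cell type. The submitters' processing notes name build mm10, STAR version 2.7.1a, DESeq2 version 1.22.2, featureCounts version 1.6.0 and FastQC version 0.11.8, with no roles. The deposited reports give, per the file headers, an enrichment score and a normalised enrichment score per gene set, a nominal p-value, an FDR q-value, a family-wise p-value, set size and leading edge. What the authors permuted is not stated in these sources.

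Members were found by name. Scores were signed from the report names: myeloid reports were read as sets higher in the first-named group, cell line reports by up and down. A reversal of all comparisons of a tissue, or of the lines, would not be seen from the files. Counts and medians were computed with Python 3.11.15, pandas 2.3.3, numpy 2.4.6 and scipy 1.17.1, and the counting was tested on simulated data. Features named are members with FDR q below 0.05 in any comparison, the 3 largest NES sizes per comparison and direction, and the extremes of each role group in the lines, plus further members; 1 member, called in no comparison, is counted but not reported by name here. Related and other cell type sets are named only where called, at most 3 per comparison and direction. Exceptions are KEGG's T cell receptor and long-term potentiation sets, given beside called ones. Members, lists and alternatives were chosen with earlier results of these data known. No test was made over members, which share genes, and the reference sequences were not used.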

Additional observations from a re-analysis of the deposited data

How the results depend on the processing

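No paired analysis was possible because the files hold 1 score per set and comparison, and for the same reason no replicate could be left out and depth could not be weighed. At FDR q below 0.25 the members called in the lines went from 0 to 8 higher and 0 to 1 lower. Likewise they became 10 lower in B16F10-bearing against healthy marrow, 8 higher in YUMM3.3-bearing against healthy marrow, 3 higher and 4 lower in B16F10-bearing against healthy spleen, 14 lower in YUMM3.3-bearing against healthy spleen and 4 higher between the tumours in spleen. At a deposited FWER p below 0.05 the count was 0 in every comparison and direction. With sets of 25 to 200 genes alone (17 members), 1 was higher in B16F10-bearing against healthy marrow, 1 higher in YUMM3.3-bearing against healthy marrow and 5 lower between the tumours in marrow, and the median NES of B16F10-bearing against healthy spleen became -1.04 from -0.78. Without the neurotrophin and neurodegenerative names, 1 was higher in B16F10-bearing against healthy marrow, 0 lower in YUMM3.3-bearing against healthy marrow and 0 higher between the tumours in marrow. Reactome sets alone gave 0 for the latter counts too. Dropping meiotic synapsis as well, chosen after seeing its calls so that the lower counts follow from the choice, left 0 higher in B16F10-bearing against healthy marrow, 1 higher in YUMM3.3-bearing against healthy marrow, which became 0 without Reactome axon guidance, and 0 higher in YUMM3.3-bearing against healthy spleen. Between the tumours in marrow, the 8 members called lower with B16F10 became 7 without meiotic synapsis and 6 without Reactome axon guidance as well. The medians kept their sign in all alternatives run.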
